A study of Mus musculus with 4 samples.

Results

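The 8 genes described here write, erase or read DNA methylation, and were taken by name from the 49671 genes of the deposited tables, where each name was found once. Dnmt1, Dnmt3a and Dnmt3b encode the DNA methyltransferases, Uhrf1 the factor that brings DNMT1 to replicated DNA, Tet1, Tet2 and Tet3 the dioxygenases that oxidise methylcytosine, and Mbd2 a protein that binds methylated CpGs. RNA was taken from CD3+ T cells of the spleen. The 4 libraries are labelled as biological replicates and are taken here as 4 animals. These were female F1 offspring of Mus musculus castaneus fathers, and their C57BL/6 mothers were heterozygous for a deletion of Xist, the RNA gene that silences an X chromosome. All 4 libraries belong to 1 group, cultured for 48 hours on plate-bound anti-CD3 (1 µg/ml) with soluble anti-CD28 (10 µg/ml) and 2.5 µM IMD-0354, which blocks IKKβ, a kinase of the NF-κB pathway. No untreated or unstimulated library was analysed here, the age of the mice is not given in the labels, and the effects of stimulation and inhibitor were therefore not compared. The comparisons that the design allows are those between the alleles of each gene, between the genes and between the animals. Since every animal came from the same direction of cross, strain and parent of origin cannot be told apart.

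DNA methylation sits mainly on the cytosines of CpG dinucleotides. DNMT3A and DNMT3B place it on unmethylated DNA, and DNMT1 with UHRF1 copies it to the new strand after replication, so that it is lost passively when copying fails. TET enzymes start active removal, and the oxidised base is then diluted by replication or cut out by the glycosylase TDG and replaced. In T cells DNMT3A and DNMT1 are known for holding lineage genes silent, TET2 and TET3 for opening enhancers and for keeping Foxp3 expressed in regulatory T cells, and MBD2 for binding methylated regulatory DNA of cytokine genes.

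The RefSeq table of promoter windows (GRCm38.p6, the build of mm10), which span 250 bases before to 50 bases after a transcript start, matched 7 of the 8 genes with 12 windows. For each gene the window richest in CpG is compared here, and all 7 held more CpGs than the median window of the table. The Tet2 window held 57 CpGs, more than in 99.8% of the 32851 windows in the table, whereas the Tet3 window held 22 and the Tet1 window 17, with a median of 7 over all windows. Dnmt3a had 47, Dnmt1 and Uhrf1 33 each and Dnmt3b 30. The 250 bases before the starts of Tet2 (chr3:133544391-133544640, minus strand) and Tet3 (chr6:83441679-83441928, minus strand) are shown because these are the abundant TET genes of the cells and differ in CpG number, with 51 and 17 CpGs in these stretches, written in capitals.
Tet2: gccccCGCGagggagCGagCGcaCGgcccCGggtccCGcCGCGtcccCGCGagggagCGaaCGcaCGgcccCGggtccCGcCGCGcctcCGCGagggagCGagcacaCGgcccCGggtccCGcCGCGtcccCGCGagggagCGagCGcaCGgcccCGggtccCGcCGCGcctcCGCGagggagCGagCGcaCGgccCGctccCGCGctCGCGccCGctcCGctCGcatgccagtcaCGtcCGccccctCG
Tet3: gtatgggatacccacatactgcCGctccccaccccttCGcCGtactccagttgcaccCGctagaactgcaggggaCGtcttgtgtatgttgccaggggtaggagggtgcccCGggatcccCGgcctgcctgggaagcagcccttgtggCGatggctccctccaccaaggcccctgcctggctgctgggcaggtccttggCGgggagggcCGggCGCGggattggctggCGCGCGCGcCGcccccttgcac
The Tet3 stretch overlaps an exon of the noncoding gene B230319C09Rik on the opposite strand. Values per gene do not show which start was used in these cells.

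The pair that copies methylation shared a sequence of the E2F type, the family of factors that switch on genes for DNA synthesis. The letters TTTCGCGC, TTTGGCGC and TTTCCCGC were searched on both strands, and 1.84% of all windows held at least 1 of them. Among the 12 windows of the 7 genes they were found in 2, of Dnmt1 and Uhrf1. The 30 bases around the first match, with the match in capitals and read 5′ to 3′ in the direction of the gene, are chr9:20952824-20952853 (minus strand), where it lies in an exon of Dnmt1 and on the strand opposite to the gene, and chr17:56304117-56304146 (plus strand).
Dnmt1: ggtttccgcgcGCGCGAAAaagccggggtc
Uhrf1: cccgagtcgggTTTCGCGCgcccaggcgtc
Searched in the same way, GGGCGG, the Sp1 letters, was in 10 of the 12 windows, from all 7 genes, and in 35.7% of all windows. CCAAT was in 5 of the 12, from Dnmt1, Tet3 and Uhrf1 (37.4% of all windows). CACGTG was in 1, from Dnmt3a (7.15%), and TGACGTCA in none (1.79%). The NRF1 consensus was in 2 windows of Dnmt1 (0.971%) and the NF-κB consensus in 1, of Dnmt3b (8.46%). A match describes letters in these windows only.

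Levels are given as RPKM, reads per kilobase of gene scaled to the size of the library. Mbd2 was the most abundant of the 8 genes, followed by Tet3 and Tet2, then by Dnmt1 and Dnmt3a at nearly the same level, then Uhrf1 and Dnmt3b, with Tet1 far below. Of the 8 genes 7 had a mean of at least 1 RPKM, as had 11453 genes in the table. Between neighbours in this order, every pair stood in the same order in 4 of 4 replicates. For 5 of the 7 neighbour pairs the ranges of the 4 replicates did not overlap, and they did overlap between Tet2 and Dnmt1 and between Dnmt1 and Dnmt3a. With 4 replicates an exact permutation test that flips the signs of the log2 ratios (two-sided) cannot go below p = 0.13, and each of the 7 pairs had this p, before and after Benjamini-Hochberg adjustment.

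**Figure D1:**
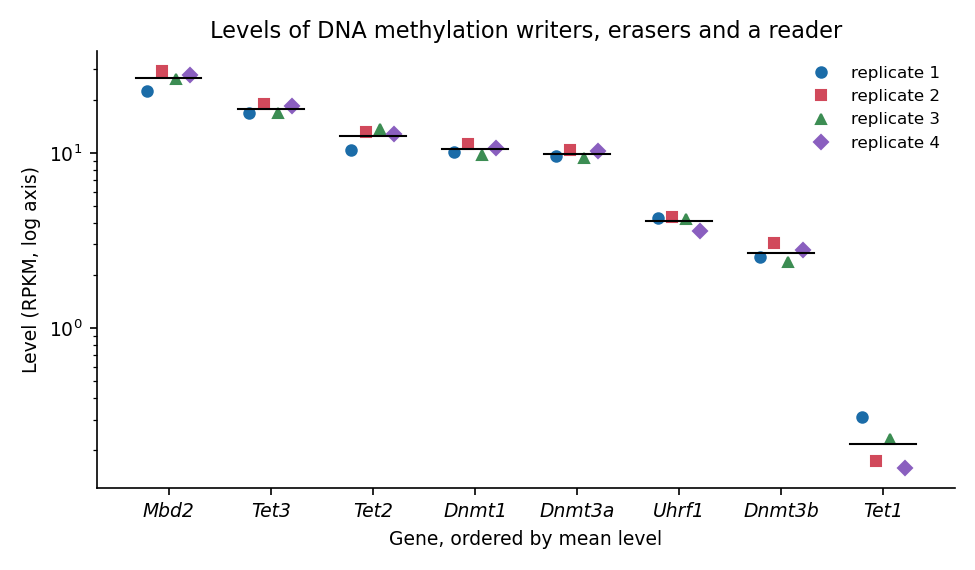
RPKM of the 8 genes (log axis), with a symbol for each of the 4 replicates and a line at the mean. Genes are ordered by mean level, from Mbd2 at 26.6 RPKM to Tet1 at 0.219 RPKM.

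Dnmt1 (chr9:20907209-20959888, ENSMUSG00000004099), the maintenance methyltransferase, had 10.2, 11.3, 9.71 and 10.7 RPKM in replicates 1 to 4. Its mean was 10.5 ± 0.688 RPKM (SD, n = 4), which lay above 64.3% of the genes with at least 1 RPKM, whose median was 6.72 RPKM. Uhrf1 (chr17:56303321-56323486, ENSMUSG00000001228), which recognises half-methylated CpGs, had 4.22, 4.32, 4.18 and 3.56 RPKM, so that replicate 4 was the lowest. Its mean of 4.07 ± 0.348 RPKM was 0.389 times that of Dnmt1, and Dnmt1 exceeded Uhrf1 by 2.32 to 3.00 times within a library.

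Dnmt3a (chr12:3806007-3914443, ENSMUSG00000020661), the de novo enzyme of most somatic cells, had 9.65, 10.4, 9.38 and 10.2 RPKM. Each library held slightly less Dnmt3a than Dnmt1, with a ratio of Dnmt1 to Dnmt3a of 1.06 ± 0.0246 (SD, n = 4). Dnmt3b (chr2:153649450-153687730, ENSMUSG00000027478), the de novo enzyme best known from early embryos, had 2.54, 3.07, 2.37 and 2.78 RPKM. Dnmt3a exceeded it by 3.70 ± 0.252 times, and the ranges did not overlap. Dnmt3a was the steadiest of the 8 genes over the animals, with a coefficient of variation of 4.63%, against a median of 11.4% over all genes with at least 1 RPKM.

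Tet3 (chr6:83362373-83459084, ENSMUSG00000034832) had 17.0, 19.1, 16.9 and 18.5 RPKM, more than any methyltransferase gene in every library. Tet2 (chr3:133463679-133545139, ENSMUSG00000040943), often mutated in human blood cancers, had 10.3, 13.2, 13.6 and 12.7 RPKM, with replicate 1 below the others. Tet3 exceeded Tet2 by 1.45 ± 0.163 times (SD, n = 4). Tet1 (chr10:62804570-62908996, ENSMUSG00000047146), the TET enzyme best known from embryonic stem cells, had 0.311, 0.174, 0.231 and 0.159 RPKM. Its mean of 0.219 ± 0.0689 RPKM was exceeded 54.6 to 117 times by Tet3 and 33.3 to 80.4 times by Tet2 within a library. Summed, the 3 TET genes had 30.6 ± 2.08 RPKM and the 3 methyltransferase genes 23.0 ± 1.44 RPKM, with the TET sum higher in 4 of 4 replicates.

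Mbd2 (chr18:70568189-70626131, ENSMUSG00000024513), which recruits the NuRD corepressor complex to methylated DNA, had 22.6, 29.5, 26.4 and 28.0 RPKM. Replicate 1 was the lowest, as it was for Tet2. The mean of 26.6 ± 2.98 RPKM was 2.54 times that of Dnmt1 and lay above 87.6% of the genes with at least 1 RPKM.

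The T cell label was checked against markers. All 10 T cell markers had at least 1 RPKM, and their sum ran from 371 to 409 RPKM. Of 8 myeloid markers 4 reached 1 RPKM, and their sum ran from 37.2 RPKM in replicate 4 to 160.5 RPKM in replicate 2, with Lyz2 and S100a8 the highest and Mpo at 0 in replicates 1 and 2. Of 7 B cell markers 3 reached 1 RPKM, with a sum of 5.69 to 12.2 RPKM. Red cell markers summed to at most 8.35 RPKM, NK markers to at most 4.75 RPKM and stromal and endothelial markers to at most 3.90 RPKM. Most of the NK sum was Eomes, at a mean of 3.93 RPKM, with the other 3 markers under 0.1 RPKM. Most of the stromal and endothelial sum was Pecam1, at a mean of 3.38 RPKM. The other 4 were under 0.1 RPKM, with Cdh5 at 0 in every library. In bulk RNA fewer cells of a type and less RNA per cell cannot be told apart, and the part of other cell types in the levels of the 8 genes was not tested. Allelic reads numbered 30539711 to 34992012 per library, of which 49.5% to 49.7% of the autosomal ones came from Castaneus.

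Tet3 had more reads assigned to the maternal C57BL/6 allele than to the paternal Castaneus allele, and was the only gene called of the 7 tested. Of all autosomal genes tested 28.1% were called in either direction and 15.6% with C57BL/6 higher, and 1 call among 7 genes is not a result about the group against that background. Its reads from the Castaneus allele were 45.4%, 45.7%, 42.9% and 43.3% of the allelic reads in replicates 1 to 4. All 4 animals lay below 50%. The 95% Wilson intervals, which take each read as its own molecule, ended between 43.7% and 46.5%. With 6.79 to 22.6 reads estimated per molecule by replicate, these intervals are too narrow, and they do not cover differences between animals. The mean share was 44.3% ± 1.44 (SD, n = 4) over 12575 to 14159 reads per library. The log2 ratio of Castaneus to C57BL/6 was -0.31 with a standard error of 0.05 (edgeR's quasi-likelihood test, two-sided, adjusted p = 0.000893 over 10268 autosomal genes). Split by this share, the C57BL/6 part of the Tet3 level was 9.95 ± 0.589 RPKM and the Castaneus part 7.92 ± 0.618 RPKM. The ranges of the 2 parts did not overlap, which rests on the same share and is no further support. How many of all genes have parts without overlap was not counted. The size of the Tet3 ratio was larger than that of 55.5% of the genes tested. The call held in 11 of 11 alternative analyses, with log2 ratios of -0.34 to -0.26 and an adjusted p of 1.93e-10 to 0.009.

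**Figure D2:**
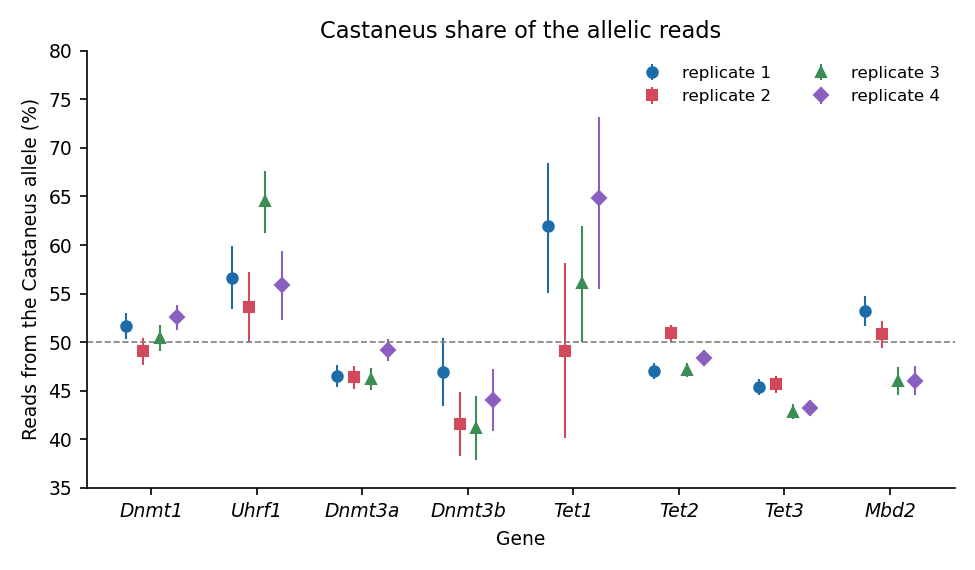
Share of allelic reads from the Castaneus allele (%) for the 8 genes, with a symbol for each of the 4 replicates and 95% Wilson intervals that cover counting error only. The 4 Tet3 values lie between 42.9% and 45.7%, the 4 Uhrf1 values between 53.6% and 64.5%, and the dashed line marks 50%.

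Uhrf1 leaned the other way without passing. Its Castaneus shares were 56.7%, 53.6%, 64.5% and 55.8%, all above 50%, with replicate 3 the highest, over 733 to 902 reads per library. The log2 ratio was 0.47 with a standard error of 0.17 (edgeR's quasi-likelihood test, adjusted p = 0.0656), against 12.4% of all genes called with Castaneus higher. It passed in 5 of 11 alternatives, among them the scaling by the allele totals of its own chromosome, with a log2 ratio of 0.63 (adjusted p = 0.0185). Chromosome 17 had 46.9% ± 0.213 of its reads from Castaneus, the lowest share of any autosome. Without replicate 3 the log2 ratio of Uhrf1 was 0.34 (adjusted p = 0.254).

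The methyltransferase genes did not pass. Dnmt1 had Castaneus shares of 51.7%, 49.0%, 50.4% and 52.5%, on either side of 50%, and a log2 ratio of 0.08 with a standard error of 0.07 (edgeR, adjusted p = 0.443). Dnmt3a had 46.5%, 46.4%, 46.2% and 49.2%, below 50% in 4 of 4 animals, and a log2 ratio of -0.14 with a standard error of 0.06 (adjusted p = 0.0986). Dnmt3b had 46.9%, 41.5%, 41.1% and 44.0%, also below 50% in 4 of 4 animals, and a log2 ratio of -0.36 with a standard error of 0.16 (adjusted p = 0.115). The Dnmt3b ratio was thus larger in size than that of Tet3, with a standard error over 3 times as wide, on 770 to 920 reads per library. For both Dnmt3a and Dnmt3b the C57BL/6 and Castaneus parts of the RPKM did not overlap over the 4 animals. These parts are the RPKM split by the same shares, so they are no further support. How many of all genes have parts without overlap was not counted. DESeq2's Wald test called both (adjusted p = 0.0201 and 0.0344), but it called 3889 of all 10268 genes, against 2883 in the main analysis. Each of the 2 genes was called in 1 of 11 alternatives.

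Tet2 and Mbd2 were close to balance. Tet2 had Castaneus shares of 47.0%, 50.9%, 47.1% and 48.4% over 12588 to 17548 reads per library, the deepest of the 8 genes, and a log2 ratio of -0.07 with a standard error of 0.05 (edgeR, adjusted p = 0.350). Mbd2 had 53.2%, 50.8%, 46.0% and 46.0%, so that 2 animals lay on either side of 50%, and a log2 ratio of -0.03 with a standard error of 0.09 (edgeR, adjusted p = 0.815). Tet1 was below the minimum of 1 RPKM and was not tested in the main analysis. Its Castaneus shares were 62.0%, 49.1%, 56.1% and 64.8% on 108 to 264 reads per library, and without the RPKM minimum its log2 ratio was 0.49 with a standard error of 0.41 (edgeR, adjusted p = 0.461). Whether the ratio of Tet3 differs from those of Tet1 and Tet2 was not tested.

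Whether a difference in allelic share between the animals was detected for the 7 genes depended on how the reads were divided. A chi-square test of alleles by replicates on reads divided by the estimated reads per molecule called 0 of the 7 genes, with 0 at an unadjusted p under 0.05 as well, and 0.721% of all genes. The smallest adjusted p was 0.819, for Mbd2. On undivided reads the same test called 6 of the 7 genes, all but Dnmt3b (adjusted p = 0.0817), and 88.5% of all genes. On reads divided by 2 it called 5 of the 7, and the share of all genes was not counted there.

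The genes around Tet3 and Uhrf1 were read for the same ratio. Of the 3 tested genes on either side of Tet3, 0 of 6 were called by edgeR, where 28.1% of all genes were, and 0 had an unadjusted p under 0.05. Their log2 ratios ran from -0.25 for Dguok, a mitochondrial nucleoside kinase gene, with a standard error of 0.14, to 0.14 for Gm43890, with a standard error of 0.18. Dguok passed in 1 of 11 alternatives, without replicate 2, with a log2 ratio of -0.37 (adjusted p = 0.0423). The transcript 5430434F05Rik, which lies inside Tet3 on the same strand and shares no exon with it, had a log2 ratio of -0.12 with a standard error of 0.23 (adjusted p = 0.760). Its gap to the ratio of Tet3 was smaller than this standard error. Around Uhrf1, a set chosen after its values were seen, 3 of 6 genes were called, all with Castaneus higher, as were 12.4% of all genes. These were Plin3, a lipid droplet coat gene, with a log2 ratio of 0.59 (adjusted p = 0.0013), Kdm4b, a histone demethylase gene, with 0.32 (adjusted p = 0.019), and Ptprs, a receptor phosphatase gene, with 0.38 (adjusted p = 0.000335), all by edgeR. Ticam1, an adaptor gene of Toll-like receptors, had 0.53 without passing (adjusted p = 0.0553). It passed in 6 of 11 alternatives, and its log2 ratio was 0.28 without replicate 2 (adjusted p = 0.145). The Kdm4b call was lost without replicate 1 (adjusted p = 0.0817), without replicate 4 (adjusted p = 0.105) and without the replicate block (adjusted p = 0.117). Of the 6 neighbours of the other genes, 1 was called for Dnmt1, Dnmt3a and Tet2 each, and 2 for Dnmt3b and Mbd2 each.

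**Figure D3:**
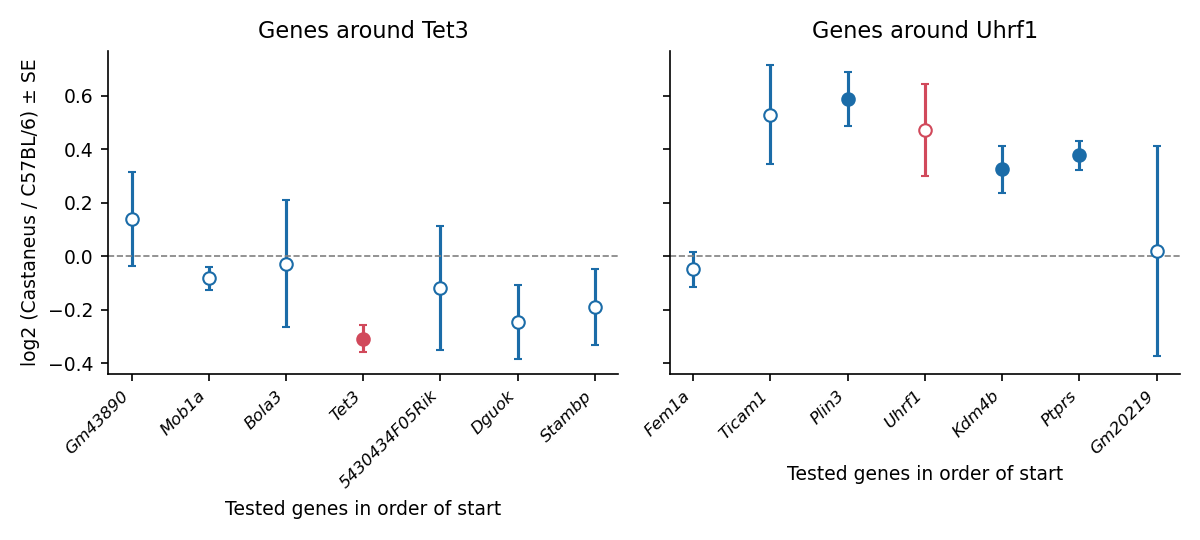
Log2 ratio of Castaneus to C57BL/6 reads with its standard error for Tet3 and Uhrf1 (red) and the 3 tested genes on either side (blue), in the order of their start positions. Filled points passed edgeR's test, as Tet3 did at -0.31 and Plin3, Kdm4b and Ptprs did at 0.59, 0.32 and 0.38.

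Dnmt1 and Uhrf1 copy methylation in S phase, and were set beside genes of DNA replication and the cell cycle. The 6 Mcm genes, which encode the replicative helicase, had 6.77 to 15.5 RPKM, so that Dnmt1 lay within their range and Uhrf1 below it. Pcna, the sliding clamp on which DNMT1 is loaded, had 23.9 ± 1.08 RPKM, and Hells, a chromatin remodeller needed for methylation, 1.89 ± 0.162 RPKM. The other 10 genes of this list were lower than every Mcm gene, those of S phase entry and DNA synthesis as well as those of mitosis. The replication origin gene Cdc6 had 0.146 ± 0.0243 RPKM, the transcription factor gene E2f1 0.424 ± 0.104, the nucleotide synthesis genes Tyms and Rrm2 0.537 ± 0.0987 and 1.10 ± 0.0545, and Gins1, of the replicative helicase, 1.47 ± 0.949 (SD, n = 4). Mki67 had 0.535 ± 0.142 RPKM, Top2a 0.773 ± 0.166, Cdk1 0.316 ± 0.0990 and Ccnb1 0.304 ± 0.0999 (SD, n = 4). Ccna2, a cyclin gene of S phase and mitosis, had 0.0171, 0.323, 0.0088 and 0.0425 RPKM, with replicate 2 far above the others. Its allelic reads in replicate 2 were 40 from C57BL/6 and 0 from Castaneus. At an estimated 22.6 reads per molecule in that library, this value may rest on very few molecules. Of the 16 genes of this list 8 reached 1 RPKM. The sum over all 16 genes, most of it from the Mcm genes, was 60.5 ± 2.72 RPKM and highest in replicate 4. Mki67, Top2a, Cdk1, Ccnb1, Ccna2, Tyms, Cdc6 and Gins1 were instead highest in replicate 2. So were Dnmt1, Uhrf1, Dnmt3a, Dnmt3b, Tet3 and Mbd2, while Tet1 was highest in replicate 1 and Tet2 in replicate 3. The peak in replicate 2 was thus not particular to Dnmt1 and Uhrf1. Replicate 2 also had the highest sum of the myeloid markers and the most reads estimated per molecule, 22.6 against 6.79 to 12.6 in the other libraries. The part of either in these levels was not tested.

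**Figure D4:**
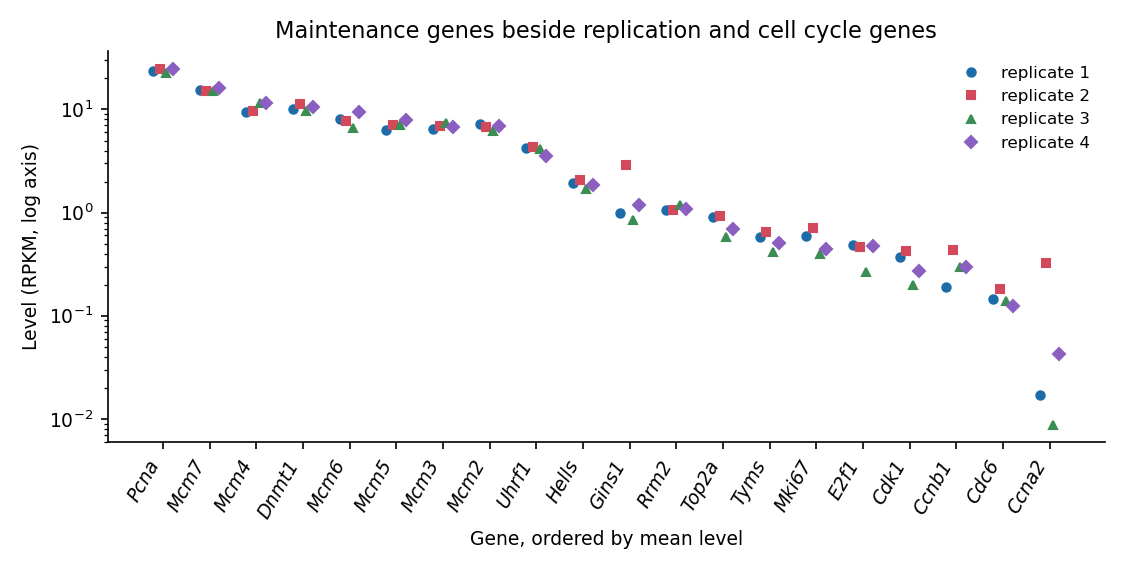
RPKM (log axis) of Dnmt1, Uhrf1, Hells and Pcna beside 16 replication and cell cycle genes, ordered by mean level, with a symbol for each of the 4 replicates. Dnmt1 at 10.5 RPKM stands among the Mcm genes, and Mki67, Top2a, Tyms, E2f1, Cdk1, Ccnb1, Cdc6 and Ccna2 lie below 1 RPKM.

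In the 5 lists of related genes, calls between the alleles were made for 13 of 55 genes tested, 4 with Castaneus higher and 9 with C57BL/6 higher, where 28.1% of all genes were called. Of the 9, Gatad2b, Tdg and Shmt2 were lost under each of the 3 other scalings, and over all genes the calls went from 1278 higher and 1605 lower to 1481 and 1352 with TMM factors. Of 10 maintenance partners tested, Pcna was called, with 37.2% ± 0.697 of its reads from Castaneus and a log2 ratio of -0.73 (adjusted p = 2.81e-05). Pcna has a copy, Pcna-ps2, at 1.20 RPKM, and reads that fit both are uncertain. The other abundant members of this list, the chromatin genes Kmt2a at 59.0 RPKM and Trim28 at 58.7 RPKM and the UHRF1-binding deubiquitinase gene Usp7 at 37.6 RPKM, did not pass. Uhrf2, the paralogue of Uhrf1, had 17.4 ± 1.00 RPKM, above Uhrf1 in every replicate. Of 13 methyl-CpG readers tested 0 were called higher and 2 lower, namely Mbd5 (log2 ratio -0.62, adjusted p = 0.00454) and Gatad2b (-0.16, adjusted p = 0.0258), a NuRD subunit gene at 30.4 RPKM. The NuRD genes Chd4 at 57.1 RPKM and Mta2 at 37.5 RPKM did not pass.

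Of 12 TET partner and base excision genes tested 4 were called, all with C57BL/6 higher, as were 15.6% of all genes. Gadd45b, a stress gene at 66.7 ± 4.39 RPKM, had 23.3% ± 4.11 of its reads from Castaneus (edgeR, log2 ratio -1.71, adjusted p = 8.9e-07). Vprbp, which encodes a ubiquitin ligase subunit, had a log2 ratio of -0.62 (adjusted p = 0.000937), the glycosylase gene Neil1 -0.94 (adjusted p = 0.0118) and Tdg -0.36 (adjusted p = 0.040), a call that held in 5 of 11 alternatives. The TET partner gene Cxxc4 was listed at 0 in every library. Of 13 genes of cofactor supply tested 3 were called higher and 2 lower, where 28.1% of all genes were called in either direction. Mat2a, which encodes the enzyme that makes the methyl donor S-adenosylmethionine, had 88.4% ± 4.21 of its reads from Castaneus (log2 ratio 3.01, adjusted p = 4.37e-06). Mthfd1, a gene of folate metabolism, had 0.46 (adjusted p = 0.00711). Ahcy, which clears the product of methyl transfer, had -0.97 (adjusted p = 0.00133), and Shmt2, a serine hydroxymethyltransferase gene and the most abundant of the list at 70.3 RPKM, -0.18 (adjusted p = 0.0292), while Mat2b at 11.8 RPKM did not pass. Of 7 replication and cycle genes tested Mcm5 was called with Castaneus higher (log2 ratio 0.42, adjusted p = 0.0155), as were 12.4% of all genes. The most abundant of the 7, Mcm7 at 15.5 RPKM and Mcm4 at 10.6 RPKM, did not pass.

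Some of these calls were lost with 1 library fewer, mostly at a similar log2 ratio. Neil1 was lost without replicate 1 or 4 (adjusted p = 0.064 and 0.0707), with log2 ratios of -0.85 and -0.97. Tdg was lost without replicate 3, where its log2 ratio was -0.23 (adjusted p = 0.201), and without replicate 4, where it was -0.33 (adjusted p = 0.172). Mcm5 was lost without replicate 1, 3 or 4 (adjusted p = 0.0553, 0.080 and 0.0905), with log2 ratios of 0.36 to 0.42. Gatad2b was lost without replicate 2, 3 or 4 (adjusted p = 0.0556, 0.0754 and 0.121), and Shmt2 without replicate 1, 2, 3 or 4 (adjusted p = 0.0821, 0.0607, 0.109 and 0.054), all in edgeR, with log2 ratios of -0.17 to -0.14 and of -0.20 to -0.16. The calls of Pcna, Mbd5, Gadd45b, Vprbp, Mat2a and Ahcy held in 11 of 11 alternatives. The median absolute log2 ratio was 0.14 over the 7 methylation genes tested and 0.26 over all 10268 genes tested. The 7 had means of 808 to 14574 allelic reads, and genes were tested from a mean of 20. Ratios spread more at low depth, and the 2 medians were not matched for it.

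**Figure D5:**
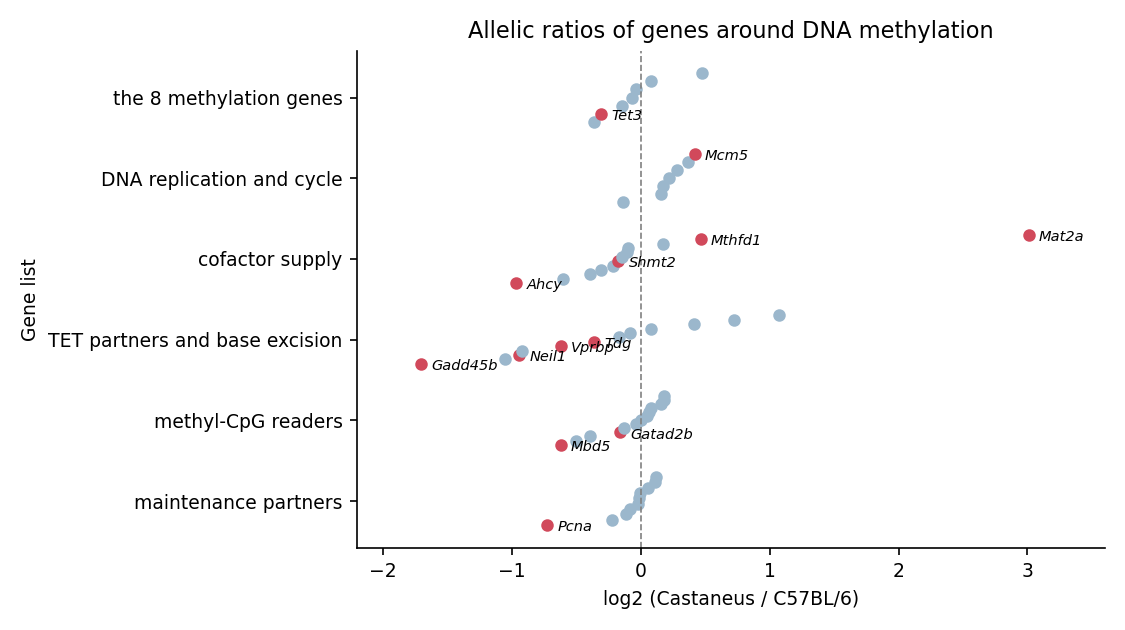
Log2 ratio of Castaneus to C57BL/6 reads for tested genes of the 8 methylation genes and of 5 related lists, sorted within each list. Red points with names passed edgeR's test, from Gadd45b at -1.71 to Mat2a at 3.01, and Tet3 is the red point among the methylation genes.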

How the data were processed

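For each library the authors deposited allele-specific counts, as whole unnormalized reads per gene and allele, and RPKM values computed from both alleles together. The submitters' processing notes name STAR 2.7.1a, featureCounts and mm10. Their rule for assigning reads to alleles, the strand setting and the total behind the RPKM were not given in the sources used here. Antisense and near-identical copies are therefore uncertain. Libraries were total RNA depleted of ribosomal RNA, per the labels' protocols. Gene positions came from GENCODE M21, in which 49412 of 49671 gene IDs were found.

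Autosomal genes with a mean of at least 20 allelic reads and 1 RPKM were tested for a Castaneus to C57BL/6 ratio of 1 by the quasi-likelihood test of edgeR 4.0.16 in R 4.3.3 (glmQLFit, glmQLFTest). The replicate was a block, since both alleles come from 1 animal, and library sizes were the autosomal totals of each allele. P-values were adjusted by Benjamini-Hochberg over all genes tested, at an FDR of 5%. DESeq2 1.42.0 was an alternative. Reads per molecule, 6.79 to 22.6 by replicate and highest in replicate 2, divided the reads in the chi-square test between animals. They were estimated from autosomal genes with 20 to 39 reads, of which 13.5% to 84.2% were read from 1 allele. The estimate takes both alleles as equally likely, so genes truly read from 1 allele raise it. A larger divisor makes a difference between animals harder to detect. Both tests were first run on simulated data. There the chi-square test was given the reads per molecule used to draw the reads, the same for every gene of a replicate. That run does not cover error in the estimate. Python 3.11.15 (scipy 1.17.1, numpy 2.4.6, pandas 2.3.3) did the rest, and matplotlib 3.10.9 the plots. All 8 members are named, with the called and the 3 most abundant genes of each list, and X-linked list genes by share only. Values of 1 called gene of cofactor supply and of 1 X-linked reader are not reported here, though counts over the lists include them. Members and lists were chosen with earlier results of these data known, and the motifs after the promoter windows were seen.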

Additional observations from a re-analysis of the deposited data

Results flagged for a closer look

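Of the 16 sets of 4 values checked, the RPKM and the Castaneus share of each of the 8 genes, 1 held a sample far from the others. The Castaneus share of Dnmt3a was 46.5%, 46.4% and 46.2% in replicates 1 to 3 and 49.2% in replicate 4. The gap of replicate 4 to the nearest other value was 0.892 of the whole range, above the 95% critical value of Dixon's test for 4 values. Chance marks about 1 in 20 such sets. Without replicate 4 the log2 ratio of Dnmt3a was -0.18 (edgeR, adjusted p = 0.106).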

How the results depend on the processing

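Depth limits Tet1 most, with 108 to 264 allelic reads per library. Over 11 alternatives edgeR or DESeq2 called 1956 to 3889 autosomal genes, the most with DESeq2's Wald test, against 2883. Those with C57BL/6 higher fell from 1605 to 1041 without replicate 4. The 7 genes held 1 call (Tet3), which became 2 with TMM factors, with DESeq2 size factors and with totals of the gene's own chromosome, each time adding Uhrf1, and 4 with DESeq2's Wald test, adding Dnmt3a and Dnmt3b. Leaving out 1 replicate gave 1 to 2 calls, Uhrf1 being added without replicate 2 (adjusted p = 0.034). Without the replicate block the count was 1 and the log2 ratio of Tet3 was -0.31 (adjusted p = 0.00833). Shares that differed between animals numbered 0 of 7, 6 on undivided reads and 5 on reads divided by 2. The order of levels kept 7 of 7 neighbour pairs on medians, on log2(RPKM + 0.1) and without each replicate. With every pair in the same order in 4 of 4 replicates, these settings could not change it and are no further support. Ranked among all genes above 0 RPKM the percentiles rose, that of Dnmt3b from 23.2 to 62.6. TMM and DESeq2 size factors moved the median log2 ratio from -0.041 to 0.0078 and 0.0022.

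Log2 ratios near 0 changed sign, none of them called, and the cause was not tested. Mbd2 had 0.014 with TMM factors and 0.0087 with DESeq2 size factors, and -0.11 to 0.025 with 1 replicate left out. Bola3 had 0.0071 without the replicate block, 0.020 with TMM factors and 0.015 with DESeq2 size factors, Gm20219 -0.15 without the block, and Fem1a 0.11 with totals of its own chromosome. With 1 replicate left out, Bola3 ran from -0.21 to 0.048, Gm20219 from -0.21 to 0.16, Gm43890 from -0.014 to 0.27 and 5430434F05Rik from -0.25 to 0.0097. Calls were also lost for Gatad2b, Tdg and Shmt2 under each of the 3 other scalings (adjusted p = 0.0656 to 0.188), for Gatad2b, Shmt2 and Mthfd1 without the block (adjusted p = 0.214, 0.399 and 0.0518), and for Tdg without the RPKM minimum (adjusted p = 0.0514).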

Other observations

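X-linked genes that act with the methylation machinery were read almost entirely from the C57BL/6 X chromosome. Over the whole X chromosome 16.2% ± 0.651 (SD, n = 4) of the allelic reads came from Castaneus, in a cross with the Xist deletion in the mothers. A lean to C57BL/6 was thus not particular to these genes. No X-linked gene was left out of this pooled share, Xist included, and the part of single genes in it was not tested. It need not be the share of a typical X-linked gene. Ogt, whose product binds TET enzymes, was at 55.8 ± 7.89 RPKM with 50 Castaneus reads of 38756 over the 4 libraries. Zbtb33, which encodes the methyl-binding factor Kaiso, was at 10.2 ± 1.11 RPKM with 0 of 2640. If each read were its own molecule, a count of 0 at this depth would leave room for a share of 0.114%. With 6.79 to 22.6 reads estimated per molecule, the room is wider.

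The number of allelic reads behind an RPKM unit differed widely between genes. Among the 8 genes it ran from 167 reads per RPKM for Mbd2 to 1168 for Tet2. RPKM divides reads by gene length, so this number rises with length by construction. The part of length in these differences was not tested. Mcm6, at 8.01 ± 1.19 RPKM, had a mean of 13 allelic reads, too few for the test.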
